A study of Mus musculus with 24 samples.

Results

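Most of the 10 genes described here carry sterols out of cells or are regulated by the liver X receptors, with the receptors themselves among them. Soat1 and Soat2, which complete the set, encode enzymes that store cholesterol as esters. The genes were taken by symbol from the deposited expression table, and all 10 were found among its 54532 genes. RNA was sequenced from whole liver and from the subcutaneous inguinal fat depot (inguinal white adipose tissue, iWAT) of Mus musculus with a knockout of Mrs2 (KO) or without it (WT). Mrs2 encodes a channel that lets magnesium into mitochondria. The mice were 13 weeks old when a Western diet (WD), which is obesogenic, or standard chow began, and tissue was taken 52 weeks later. The groups were KO on WD, WT on WD, KO on chow and WT on chow, in each of the 2 tissues, with 3 mice in each of the 8 groups. By the labels' protocols, RNA came from 50 mg of liver or from 100 mg of iWAT without its lymph nodes. Both were taken from powder of the whole organ. Strain, sex, the knockout allele and the cells in which it was deleted are not stated in the labels.

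Liver X receptors are nuclear receptors that bind oxysterols, oxidised forms of cholesterol, and as partners of retinoid X receptors switch on genes that remove sterol from the cell. In the liver the transporter half-molecules ABCG5 and ABCG8 pair and pass cholesterol and plant sterols into bile. ABCA1 and ABCG1 load cholesterol onto apolipoprotein A-I and HDL, and in macrophages both are standard readouts of the receptors. When sterol is plentiful the opposing regulator SREBP2, which drives cholesterol synthesis and uptake, is held inactive.

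Levels are FPKM, fragments scaled by gene length and library size, which already carry a scaling factor per library. A gene was called when limma gave a Benjamini-Hochberg adjusted p under 0.05 over all genes tested in that tissue, 14019 in liver and 14685 in iWAT. Log2 fold changes are of FPKM + 1 and are given with their standard error. Liver libraries held 14.7 to 19.5 M reads and iWAT libraries 15.4 to 20.4 M. Mrs2 was at 1.60 to 1.95 FPKM in KO and 2.74 to 5.01 in WT iWAT on WD, at 1.74 to 2.25 in KO and 3.87 to 4.67 in WT iWAT on chow, and at 3.90 to 4.47 in KO and 5.87 to 6.50 in WT liver on chow. On WD in liver it was at 4.10 to 5.21 FPKM in libraries labelled KO and 4.10 to 5.11 in libraries labelled WT, so Mrs2 did not separate these 2 groups, and they are called by their labels throughout. The 8 hepatocyte genes summed to 25764 FPKM or more in every liver library, and the 7 adipocyte genes to 7902 FPKM or more in every iWAT library. Pancreatic acinar genes summed to 1524 and 1231 FPKM in 2 livers and to 1.90 FPKM or less in the other 10. Muscle genes were raised in 2 other livers and 2 iWAT depots. These livers and depots were left out as an alternative chosen after seeing the data. The 7 lymphocyte genes summed to 147 FPKM in iWAT of KO WD replicate 2. In replicate 3 of the chow depots they summed to 232 FPKM (KO) and 285 FPKM (WT). The remaining depots held 8.50 to 77.6 FPKM. These 3 lymphocyte-rich depots were left out in another alternative, also chosen after seeing the data. Whether lymph node tissue remained in them was not tested.

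Abcg5 and Abcg8 were the genes of the set that moved furthest with WD in KO liver. The 2 genes lie head to head on mouse chromosome 17 and are read in opposite directions. In the deposited table Abcg5 (ENSMUSG00000040505) spans 84658234 to 84683011 on the minus strand and Abcg8 (ENSMUSG00000024254) spans 84676302 to 84700333 on the plus strand (mm10). The stretch between their main start sites, 109 bases at chr17:84683012-84683120, is shown from RefSeq (GRCm38.p6, plus strand) because both genes start at its ends and their levels moved together. Capitals mark TTATCT, which is the reverse complement of AGATAA, a motif of GATA factors.
Between Abcg5 and Abcg8: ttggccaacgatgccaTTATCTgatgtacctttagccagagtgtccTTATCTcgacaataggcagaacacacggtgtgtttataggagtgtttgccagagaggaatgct
AGATAA, searched on both strands, occurred in 11.2% of the 32851 promoters of 300 bases in the RefSeq table. Among the members it occurred only in the windows of Abcg5 and the neighbouring start of Abcg8. These windows overlap and share the marked sites, so they are not separate matches. A match of letters is a description and does not show binding.

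In liver on WD, Abcg5 stood at 201, 232 and 203 FPKM in the libraries labelled KO, against 97.3, 130.1 and 115 FPKM in those labelled WT. Chow livers held 52.2, 60.8 and 47.7 FPKM of it in KO and 49.5, 56.7 and 63.5 FPKM in WT. Every WD library lay above every chow library, every WD library labelled KO lay above every one labelled WT, and the genotypes overlapped on chow. KO over WT on WD gave a log2 fold change of 0.89 ± 0.14 (SE, n = 3 per group, limma adjusted p = 0.00333). WD over chow gave 1.97 ± 0.14 in KO (adjusted p = 0.000638), where Abcg5 had the smallest p of the 14019 genes, and 0.999 ± 0.14 in WT (adjusted p = 0.00178). On chow the genotypes differed by less than 1 SE. In whole tissue, fewer cells of a type and less RNA per cell cannot be told apart. The difference on WD was smaller under scaling by total reads (0.57) and quantile normalization (0.53), and it was called under every setting run.

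Abcg8 stood at 157, 165 and 152 FPKM in WD livers labelled KO, against 58.6, 91.1 and 78.6 FPKM in WD livers labelled WT. Chow livers held 51.3, 49.7 and 38.2 FPKM in KO and 51.7, 47.4 and 57.5 FPKM in WT. Again the 3 WD libraries labelled KO stood clear above all others, while the WD libraries labelled WT lay only just above the chow libraries. KO over WT on WD gave a log2 fold change of 1.07 ± 0.16 (adjusted p = 0.00311), called under every setting run. WD over chow gave 1.76 ± 0.16 in KO (adjusted p = 0.00149). In WT the diet difference of 0.52 ± 0.16 missed the threshold (adjusted p = 0.0518), although it passed under other scalings, where it reached 0.85 with total reads (adjusted p = 0.00244). The interaction, the WD-over-chow difference in KO minus that in WT, was 1.24 ± 0.23 for Abcg8 (adjusted p = 0.05002, just above the threshold) and 0.97 ± 0.20 for Abcg5 (adjusted p = 0.068). Both were called by DESeq2. They were also called by limma when WT WD replicate 2 was left out (adjusted p = 0.0233 for Abcg8 and 0.0326 for Abcg5). That liver held 1231 FPKM of pancreatic acinar genes.

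The ratio of Abcg5 to Abcg8 in FPKM was 1.28, 1.41 and 1.33 in WD livers labelled KO, against 1.66, 1.43 and 1.47 in WD livers labelled WT. It was 1.02, 1.22 and 1.25 in KO and 0.957, 1.196 and 1.10 in WT livers on chow. The ratio was thus higher on WD in both genotypes with no overlap, and higher in the WD livers labelled WT. With 3 against 3 an exact two-sided permutation test cannot go below p = 0.1, which it gave in each of these contrasts. Pearson's r between the log2 levels of the genes over the 12 liver libraries was 0.97. Next to Abcg8, the patterns most like that of Abcg5 were those of Dcakd and 1700080G11Rik (r = 0.95 each), with libraries of 4 groups sharing the diet steps. Within groups, r with Abcg5 was 0.78 for Abcg8, 0.43 for Dcakd and 0.73 for 1700080G11Rik. The genes share 82 exonic bases on opposite strands, 3.02% of the exonic length of Abcg5 and 2.19% of that of Abcg8, so without a known strand setting a few reads could count for either.

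**Figure D1:**
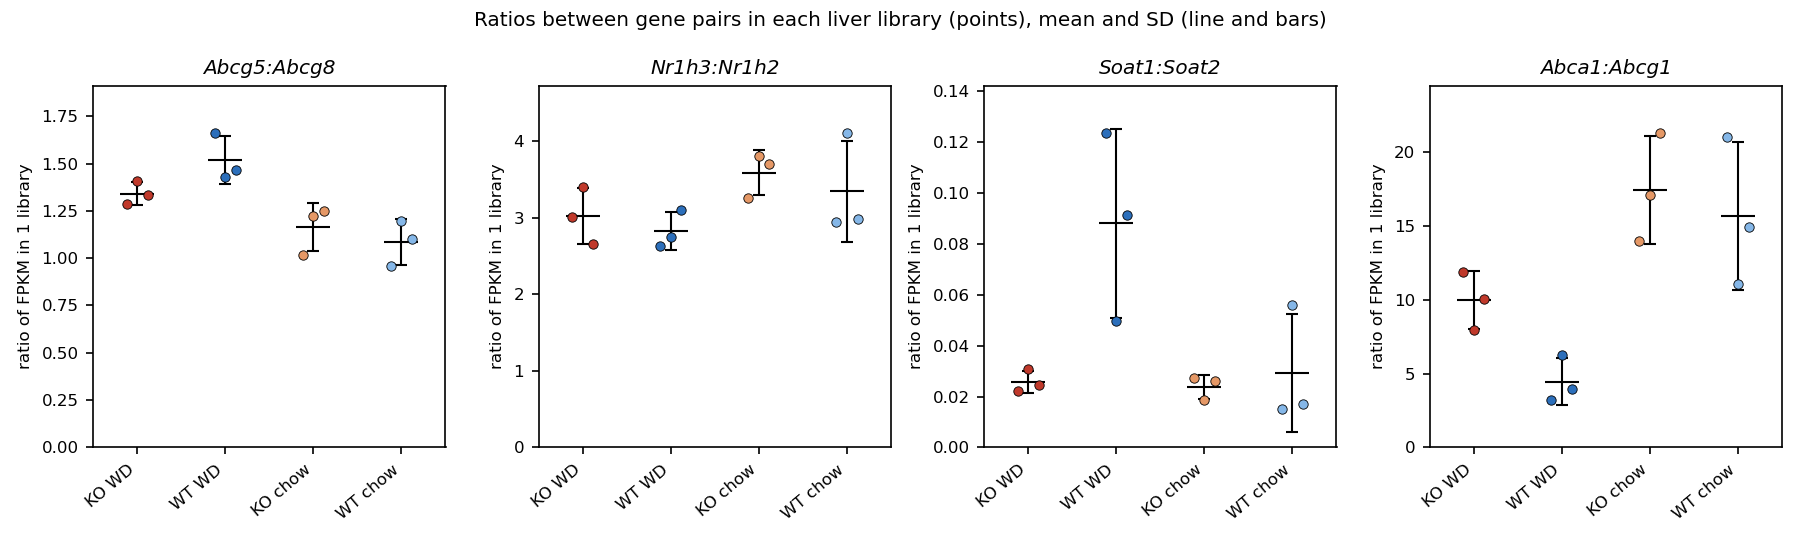
Ratio of FPKM between 4 pairs of the genes (y axis, from 0) in each liver library (points), grouped on the x axis by label as KO WD, WT WD, KO chow and WT chow; lines are means and bars SD (n = 3). Abcg5 to Abcg8 is 1.28 to 1.66 on WD and 0.957 to 1.25 on chow.

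**Figure D2:**
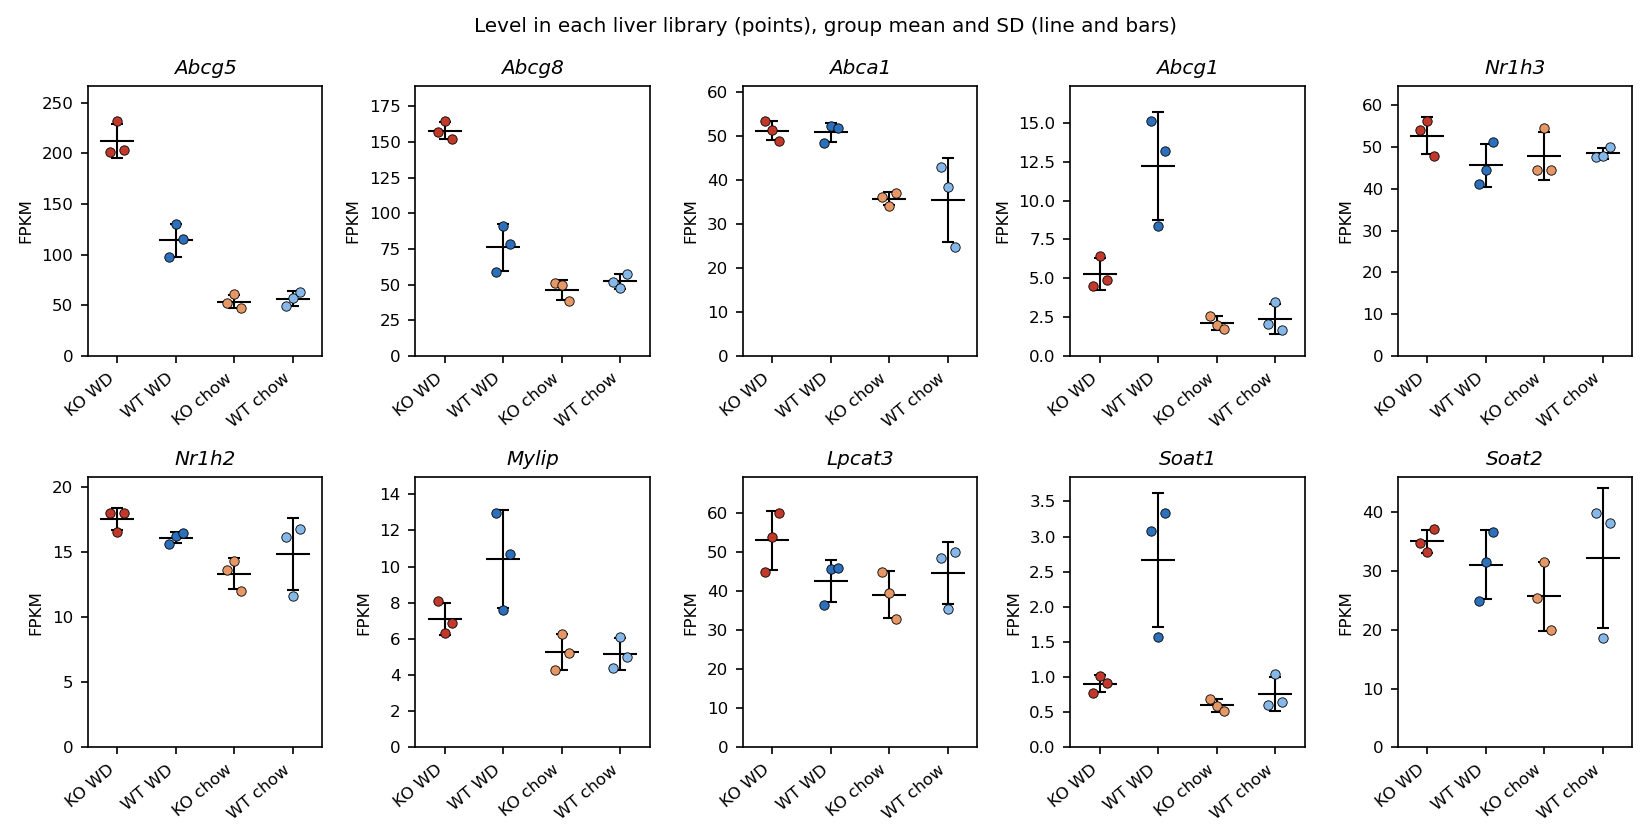
FPKM of the 10 genes (y axis, from 0) in each liver library (points), grouped on the x axis as KO WD, WT WD, KO chow and WT chow by label; lines are group means and bars SD (n = 3). Abcg5 and Abcg8 are highest in the WD livers labelled KO, and Abcg1, Mylip and Soat1 in the WD livers labelled WT.

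The exporters Abca1 and Abcg1 did not follow that order. Abca1 (ENSMUSG00000015243, chromosome 4, 53030787 to 53159895, minus strand) pumps cholesterol to lipid-poor apolipoprotein A-I. Its 250 bases before the RefSeq start, at chr4:53159896-53160145 (GRCm38.p6, minus strand), are shown because it was the member whose promoter held a match to the receptors' element. Capitals mark the match, on the opposite strand, to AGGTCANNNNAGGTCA, the repeat that the liver X and retinoid X receptors bind as a pair.
Abca1 upstream: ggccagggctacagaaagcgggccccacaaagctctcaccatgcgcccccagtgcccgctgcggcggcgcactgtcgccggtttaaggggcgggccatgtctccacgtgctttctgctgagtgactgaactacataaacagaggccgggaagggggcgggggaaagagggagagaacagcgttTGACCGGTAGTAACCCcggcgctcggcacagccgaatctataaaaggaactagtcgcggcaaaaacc
The match lies 67 to 52 bases before the start and differs from the 12 fixed bases at 3 positions. Of the 32851 promoters, 21.9% held a match on either strand with at most 3 mismatches and 3.02% one with at most 2. The allowance of 3 was set after the promoters of the members had been searched. The table held promoters for 8 of the 10 genes, and Abcg1 and Soat2 are named without one.

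Abca1 stood at 53.3, 51.2 and 48.9 FPKM in WD livers labelled KO, against 48.2, 52.2 and 51.8 FPKM in WD livers labelled WT. Its chow levels were 36.1, 34.0 and 37.0 FPKM in KO livers and 43.0, 38.4 and 24.7 FPKM in WT livers. The WD libraries all lay above the chow libraries and the genotypes overlapped on both diets. WD over chow was 0.54 ± 0.16 in WT (adjusted p = 0.0416) and 0.51 ± 0.16 in KO (adjusted p = 0.196, not called). Without WT chow replicate 3, the lowest library, the WT value was 0.31 (adjusted p = 0.0574), and it was also lost without any 1 of the 3 WT WD libraries (adjusted p = 0.0847 to 0.11). On WD, KO over WT was 0.01 ± 0.16 (95% interval -0.35 to 0.37), and its sign changed with the scaling.

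Abcg1 (ENSMUSG00000024030, chromosome 17, 31057698 to 31115777, plus strand), which passes cholesterol to HDL particles, stood at 4.49, 6.45 and 4.86 FPKM in WD livers labelled KO, against 15.1, 8.36 and 13.2 FPKM in those labelled WT. Chow livers held 2.58, 1.99 and 1.74 FPKM in KO and 2.04, 3.47 and 1.66 FPKM in WT. The WD livers labelled WT were the highest, those labelled KO came between, and the chow groups overlapped. On WD the genotypes differed by -1.05 ± 0.24 for KO over WT (adjusted p = 0.0134). That call was lost without WT WD replicate 1 (-0.89, adjusted p = 0.0589) or KO WD replicate 1 (-0.96, adjusted p = 0.0524). WD over chow was 1.96 ± 0.24 in WT (adjusted p = 0.00107) and 1.01 ± 0.24 in KO (adjusted p = 0.117, called only by DESeq2), and the interaction of -0.95 ± 0.34 was not called (adjusted p = 0.206).

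Neither receptor gene was called in liver. Nr1h3, which encodes the receptor LXR-alpha, stood at 54.2, 56.2 and 47.9 FPKM in WD livers labelled KO, against 41.1, 44.6 and 51.2 FPKM in WD livers labelled WT. On chow its range was 44.4 to 54.5 FPKM in KO and 47.7 to 49.9 FPKM in WT livers. All 4 groups overlapped and no liver comparison called it. KO over WT on WD was 0.21 ± 0.11 (adjusted p = 0.22), a value that turned negative under scaling by total reads and by quantiles. Nr1h2, which encodes the more widely expressed LXR-beta, stood at 18.0, 16.6 and 18.0 FPKM in WD livers labelled KO, against 15.6, 16.2 and 16.5 FPKM in those labelled WT. Its chow range was 12.04 to 14.3 FPKM in KO and 11.7 to 16.8 FPKM in WT. WD over chow in KO was 0.37 ± 0.12 (adjusted p = 0.203), not called although the libraries did not overlap. In WT it was 0.13 ± 0.12 (adjusted p = 0.516), but 0.45 and called under scaling by total reads (adjusted p = 0.0102). In FPKM Nr1h3 exceeded Nr1h2 in every liver library, with a geometric mean ratio of 3.01 in WD livers labelled KO, 2.82 in WD livers labelled WT, 3.58 in KO and 3.30 in WT on chow.

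Mylip encodes the ubiquitin ligase that marks the LDL receptor for breakdown. It stood at 8.07, 6.34 and 6.90 FPKM in WD livers labelled KO, against 13.0, 7.57 and 10.7 FPKM in those labelled WT, with overlap in WT replicate 2. On chow the ranges were 4.28 to 6.26 FPKM in KO and 4.39 to 6.09 FPKM in WT. WD over chow was 0.87 ± 0.19 in WT (adjusted p = 0.0107) and 0.38 ± 0.19 in KO (adjusted p = 0.358). On WD, KO over WT was -0.47 ± 0.19 (adjusted p = 0.101), and it was called by DESeq2, under scaling by total reads and without WT WD replicate 2 (-0.66, adjusted p = 0.0233).

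Lpcat3, whose enzyme places polyunsaturated chains in membrane phospholipids, stood at 45.0, 53.9 and 60.1 FPKM in WD livers labelled KO, against 36.3, 45.7 and 45.8 FPKM in WD livers labelled WT. On chow it ranged over 32.8 to 44.9 FPKM in KO and 35.5 to 49.9 FPKM in WT. The WD livers labelled KO lay just above the KO chow livers and overlapped those labelled WT, and no comparison in liver called the gene (WD over chow in KO 0.43 ± 0.17, adjusted p = 0.267). Lpcat3 shares 334 exonic bases, 10.2% of its exonic length, with Emg1 on the other strand.

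Soat1 and Soat2 encode the enzymes that store cholesterol as esters, Soat1 in most cells and macrophages and Soat2 mainly in hepatocytes and intestine. Soat1 stood at 0.778, 1.02 and 0.912 FPKM in WD livers labelled KO, against 3.08, 1.57 and 3.34 FPKM in WD livers labelled WT. Chow livers held 0.691, 0.584 and 0.517 FPKM in KO and 0.599, 1.04 and 0.646 FPKM in WT. All 3 WD livers labelled WT exceeded every other library, and these levels rested on 72 to 529 reads. KO over WT on WD was -0.91 ± 0.19 (adjusted p = 0.0088) and WD over chow in WT 1.03 ± 0.19 (adjusted p = 0.00558). At so low a level the pseudocount shrinks the fold, and DESeq2 on the recovered reads gave -1.65 and 1.87. WD over chow in KO was 0.25 ± 0.19 (adjusted p = 0.547), not called although the libraries did not overlap. DESeq2 gave 0.59 there (adjusted p = 0.321). The interaction was -0.77 ± 0.26 and not called (limma adjusted p = 0.193), but it was called without WT WD replicate 2 (-1.01, adjusted p = 0.0301). Soat2 stood at 33.3 to 37.1 FPKM in WD livers labelled KO, 24.9 to 36.6 FPKM in those labelled WT, 19.9 to 31.6 FPKM in KO and 18.6 to 39.95 FPKM in WT livers on chow. It was called nowhere, and the ratio of Soat1 to Soat2 had a geometric mean of 0.0256 in WD livers labelled KO and 0.0824 in WD livers labelled WT, without overlap (exact two-sided permutation p = 0.1, the smallest possible).

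Read as counts, KO against WT on WD in liver called 2 of the 10 genes higher (Abcg5 and Abcg8), where 10.6% of all genes tested were called higher, and 2 lower (Abcg1 and Soat1), where 10.4% were. In WT liver the diet called 5 of the 10 higher and none lower, where 9.72% of all genes were called higher and 9.49% lower, and it shares the WD libraries labelled WT with the previous comparison. In KO liver the diet called 2 of the 10 higher, where 0.15% of all genes were, and none lower, where 0.271% were. The median log2 fold change of the 10 was 0.44 there against 0.01 over all genes, and 0.53 against -0.05 for the diet in WT. Other scalings moved the split of calls over all genes. KO against WT on WD called 1490 genes higher and 1453 lower, against 337 and 3029 when scaled by total reads and 969 and 1604 by median of ratios. The diet in WT called 1363 higher and 1330 lower, against 3623 and 345 by total reads and 1538 and 1007 by median of ratios. KO against WT on chow called none of the 10 and 0% of all genes, with 675 genes at an unadjusted p under 0.05, 16 genes called by DESeq2 and 0 by edgeR. The interaction in liver called none of the 10 by limma and 0.549% of all genes, with DESeq2 calling Abcg5 and Abcg8. Without the 4 livers that held the most pancreas or muscle RNA (KO chow replicate 1, WT chow replicate 3, KO WD replicate 2 and WT WD replicate 2) the diet comparison in KO called no gene at all, and Abcg5 stood at 1.89 (adjusted p = 0.0626) and Abcg8 at 1.80 (adjusted p = 0.0693).

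**Figure D3:**
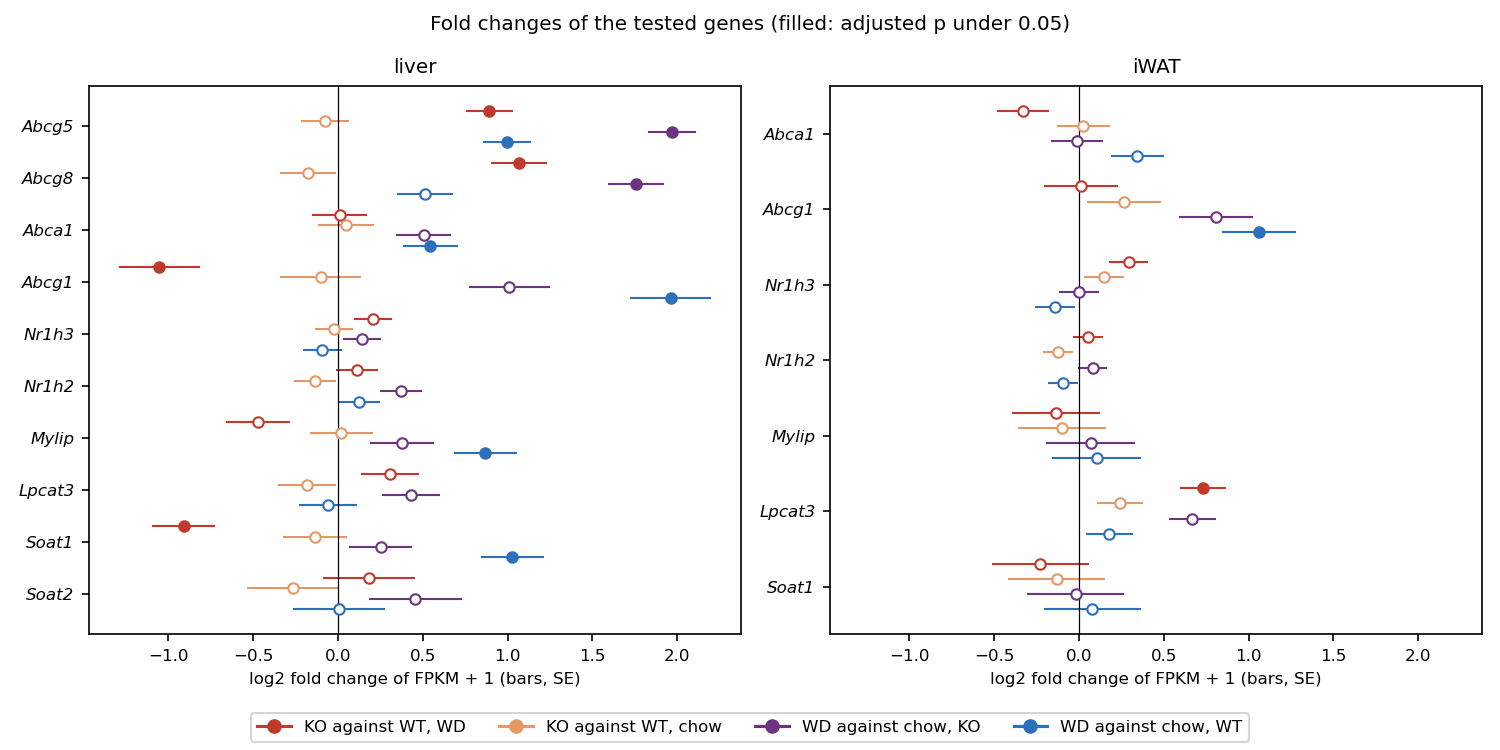
Log2 fold change of FPKM + 1 (x axis, bars SE) for each tested gene (y axis) in liver and iWAT, coloured by comparison and filled where the adjusted p was under 0.05. Abcg5 and Abcg8 in liver have positive filled points for WD in KO and for KO against WT on WD, and Abcg1 and Soat1 have negative ones for KO against WT on WD.

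Macrophage and stellate or fibroblast genes moved along with Abcg1, Soat1 and Mylip. All 9 of 9 macrophage genes were detected in every liver library, all were lower in WD livers labelled KO than in those labelled WT, and all were higher on WD than on chow in WT. Their summed level was 149.98 to 167 FPKM in WD livers labelled KO, 453 to 1162 FPKM in WD livers labelled WT, 102 to 134 FPKM in KO and 105 to 288 FPKM in WT livers on chow. WT WD replicate 2 was lowest of its group in Abcg1, Soat1, Mylip and this sum (453 FPKM). It was also the pancreas-rich liver of that group (1231 FPKM of acinar genes). WT chow replicate 2, highest of its group in the same 3 genes, was highest in the macrophage sum (288 FPKM). The KO groups did not keep this order throughout. KO chow replicate 3 had the highest sum of its group (134 FPKM) but the lowest Abcg1 (1.74 FPKM) and Soat1 (0.517 FPKM). KO WD replicate 2 had the highest sum (167 FPKM), Abcg1 and Soat1 of its group but the lowest Mylip (6.34 FPKM). The 5 stellate or fibroblast genes summed to 37.5 to 40.1 FPKM in WD livers labelled KO and 114 to 182 FPKM in WD livers labelled WT. The 5 genes of Kupffer cells, the resident macrophages of the liver, summed to 81.0 to 104 FPKM in WD livers labelled KO and 93.6 to 101 FPKM in those labelled WT, with overlap, and none of the 5 was called between these groups. The part of these cells in the values of Abcg1, Soat1 and Mylip was not tested. The gene patterns most like that of Abcg1 over the 12 livers were Prelp (r = 0.98), Islr and Trim30a (r = 0.97 each), and those most like Soat1 were Arhgef2, Sdcbp and Psap (r = 0.99 each). Within groups, r was 0.76 to 0.96 for those of Abcg1 and 0.91 to 0.98 for those of Soat1.

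**Figure D4:**
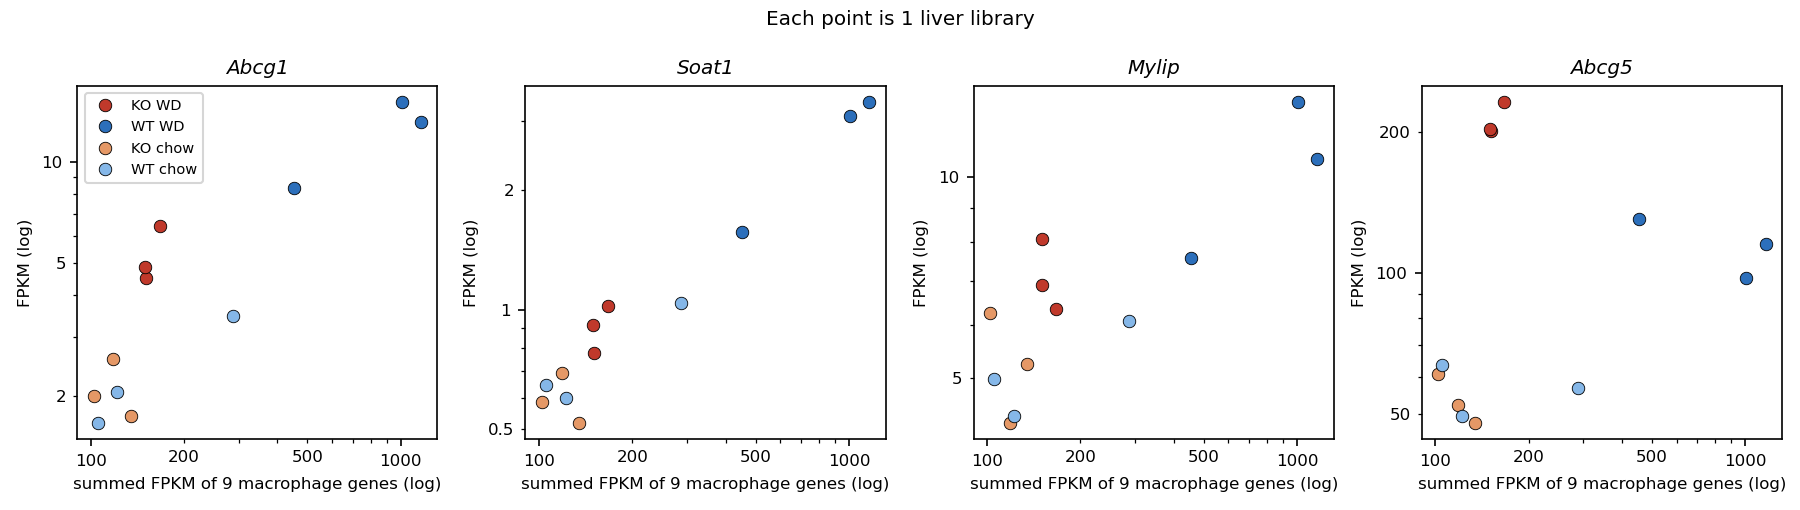
FPKM of Abcg1, Soat1, Mylip and Abcg5 (y axis, log) against the summed FPKM of 9 macrophage genes (x axis, log) in each of the 12 liver libraries, coloured by labelled group. Abcg1 and Soat1 are highest in the WD livers labelled WT, where the sum is 453 to 1162 FPKM, while Abcg5 is highest in the WD livers labelled KO, where it is 149.98 to 167 FPKM.

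Hepatocyte genes moved in the direction of Abcg5 and Abcg8 between the WD groups. The 8 genes summed to 35297 to 42771 FPKM in WD livers labelled KO and 25764 to 32862 FPKM in those labelled WT, and 5 of 8 were called higher. On chow the sum was 55744 to 66783 FPKM in KO livers and 52855 to 82240 FPKM in WT livers, above the WD livers of the same genotype. Abcg5 and Abcg8 were higher on WD than on chow in KO. The part of hepatocyte content in the difference between the WD groups, or in the differences by diet, was not tested.

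Other genes of the pathway were followed through lists. Of 9 genes in the SREBP2 list, which holds enzymes of cholesterol synthesis beside the regulator Insig1 and Srebf2 itself, 8 fell on WD in WT liver, where 9.49% of all genes were called lower. In KO liver 4 of the 9 fell, where 0.271% were, and the list medians were -2.02 in WT and -1.48 in KO. Sqle (squalene epoxidase) averaged 0.637 ± 0.117 FPKM in KO WD against 28.2 ± 12.1 FPKM in KO chow livers (SD, n = 3 each), a log2 fold change of -4.08 ± 0.38 (adjusted p = 0.00149), and in WT the change was -3.78 ± 0.38. Idi1, an isomerase of cholesterol synthesis, fell by 3.65 ± 0.44 in KO and by 3.94 ± 0.44 in WT. Between the WD groups none of the 9 was called and the list median was 0.002.

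Of 16 other targets of the liver X receptors, 4 rose on WD in WT liver, against 9.72% of all genes, 1 rose in KO liver, against 0.15%, and none fell. Between the WD groups 2 of the 16 were higher in livers labelled KO, near the 10.6% of all genes, and 4 were lower, against 10.4%. Lpl, lipoprotein lipase, averaged 8.44 ± 2.16 FPKM in WD livers labelled KO and 37.9 ± 11.2 FPKM in WD livers labelled WT (log2 fold change -2.03 ± 0.25, adjusted p = 0.00152). It was higher on WD than chow in KO by 1.65 ± 0.25 (adjusted p = 0.0264) and in WT by 2.73 ± 0.25 (adjusted p = 0.000273). Arl4c, a small GTPase, gave -1.15 ± 0.21 for KO over WT on WD (adjusted p = 0.00541) and 1.34 ± 0.21 for WD over chow in WT (adjusted p = 0.00267). Mlxipl, the carbohydrate-response factor ChREBP, gave 0.80 ± 0.15 for KO over WT on WD (adjusted p = 0.00579). Lpl and Arl4c thus lay in the order of Abcg1 and Soat1, and Mlxipl had the sign of Abcg5 and Abcg8.

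In iWAT, 7 of the 10 genes passed the filter. Abcg5 and Abcg8 had 0 to 2 reads in each iWAT library, under the 3 reads that a count of 0 allows (0.0374 to 0.0574 FPKM for Abcg5), and Soat2 stood at 0.178 to 0.563 FPKM from 9 to 27 reads. In WT on chow, liver and iWAT levels of Abca1 were 35.4 ± 9.49 and 27.9 ± 3.65 FPKM, those of Abcg1 2.39 ± 0.955 and 7.79 ± 1.77, and those of Mylip 5.16 ± 0.867 and 17.3 ± 3.13 (SD, n = 3 each). The scaling factors differ between the tissues, and these levels were not tested against each other. The order of the means in WT chow iWAT was Nr1h3, Abca1, Nr1h2, Mylip, Lpcat3, Abcg1, Soat1 and Soat2, with Nr1h3 and Abca1 overlapping in their libraries, as did Nr1h2, Mylip and Lpcat3. In WT chow liver it was Abcg5, Abcg8, Nr1h3, Lpcat3, Abca1, Soat2, Nr1h2, Mylip, Abcg1 and Soat1, and neighbours from Abcg5 through Soat2 overlapped.

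Lpcat3 was the only gene of the set that limma called between genotypes in iWAT. It stood at 34.4, 29.6 and 31.2 FPKM in KO on WD, against 18.7, 19.2 and 18.1 FPKM in WT on WD. Its chow levels were 21.0, 19.99 and 17.8 FPKM in KO and 18.9, 18.3 and 12.7 FPKM in WT. The 3 KO WD depots lay above all 9 others. KO over WT on WD was 0.73 ± 0.14 (adjusted p = 0.0235), 1 of 7 genes where 3.2% of all genes were called higher and 1.05% lower. The call was lost when any library but KO WD replicate 3 was left out (adjusted p = 0.0537 to 0.106), and without the 2 WD depots highest in muscle genes, WT replicate 1 and KO replicate 1, where the value was 0.67 (adjusted p = 0.157). The 6 muscle genes summed to 10.4 to 1048 FPKM in KO and 126 to 3460 FPKM in WT depots on WD, and Lpcat3 in KO WD replicate 1 was the highest of its group. The 8 genes of the hepatocyte list summed to 219 to 301 FPKM in KO and 26.5 to 83.9 FPKM in WT depots on WD, without overlap. Of the 5 tested, 2 were called higher (Cyp2e1 and Serpina1a). The sum alone does not show that hepatocytes were present in a depot. The 4 red cell genes summed to 670.4 to 1751 FPKM in KO and 1732 to 7414 FPKM in WT depots on WD, and 1 of them, Alas2, was called lower (-1.85 ± 0.43, adjusted p = 0.0447). Whether these sums reflect other tissues in the depots, and their part in the level of Lpcat3, was not tested. The authors' deposited table gives Lpcat3 a log2 fold change of 0.79 (adjusted p = 3.73e-08) in this comparison. WD over chow in KO was 0.67 ± 0.14 (adjusted p = 0.276, called by DESeq2). The gene patterns most like it over the 12 depots were Slc25a17 (r = 0.97), Sfxn5 and Mlf2 (r = 0.96 each), with r of 0.82 to 0.90 within groups.

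Abcg1 was higher on WD in iWAT. It stood at 18.6, 14.8 and 18.1 FPKM in WT on WD, against 6.55, 7.003 and 9.81 FPKM in WT on chow. In KO it stood at 16.2, 20.6 and 15.5 FPKM on WD, against 7.41, 8.19 and 13.7 FPKM on chow. No chow depot reached a WD depot. WD over chow was 1.06 ± 0.22 in WT (adjusted p = 0.0411), 1 of 7 genes where 1.36% of all genes were called higher and 0.769% lower, and 0.81 ± 0.22 in KO (adjusted p = 0.354, not called). The WT call was lost when any 1 of the 6 libraries was left out (adjusted p = 0.0554 to 0.141). KO against WT on WD differed by less than 1 SE. The macrophage sum was 390 to 806 FPKM in WT WD against 311 to 451 FPKM in WT chow depots, and 303 to 459 FPKM in KO WD against 315 to 401 FPKM in KO chow depots, and no gene of that list was called in iWAT. The hepatocyte sum was 26.5 to 83.9 FPKM in WT WD against 759 to 1042 FPKM in WT chow depots. Cyp2e1 was the only gene of that list called there, and it was lower (-4.73 ± 0.46). In KO the hepatocyte sum was 219 to 301 FPKM on WD against 629 to 810.0 FPKM on chow. The red cell sum was 1732 to 7414 FPKM in WT WD against 912 to 1329 FPKM in WT chow depots, with Alas2 called higher (2.08 ± 0.43). The lymphocyte sum was 9.996 to 36.9 FPKM in WT WD against 37.5 to 285 FPKM in WT chow depots. In KO it was 8.50 to 147 FPKM on WD against 76.9 to 232 FPKM on chow. Within each group, the depot with the highest lymphocyte sum also had the highest Abcg1. The muscle sum was 126 to 3460 FPKM in WT WD against 15.04 to 109 FPKM in WT chow depots, without overlap. In KO it was 10.4 to 1048 FPKM on WD against 3.98 to 50.1 FPKM on chow. Whether these sums reflect other cells or tissues in the depots, and their part in the level of Abcg1, was not tested.

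The other 5 genes tested in iWAT were called in no comparison. Nr1h3 stood at 34.5, 36.0 and 37.5 FPKM in KO WD depots, against 30.7, 28.9 and 28.0 FPKM in WT WD depots, without overlap (0.29 ± 0.12, adjusted p = 0.213). DESeq2 called it (adjusted p = 0.0447), and the authors' deposited table gives 0.33 (adjusted p = 0.0363). Abca1 stood at 30.2, 28.9 and 25.3 FPKM in KO WD depots, against 35.5, 38.5 and 32.8 FPKM in WT WD depots, also without overlap (-0.33 ± 0.15, adjusted p = 0.291). For Abca1 the authors' deposited table gives -0.31 (adjusted p = 0.192). Mylip ranged over 10.8 to 25.1 FPKM, Nr1h2 over 16.4 to 20.2 FPKM and Soat1 over 0.800 to 2.92 FPKM in all 12 depots, with overlapping groups. Chow genotypes, WD against chow in KO, and the interaction called 0% of all genes by limma and 0 by edgeR in iWAT. There 830, 1390 and 1011 genes had an unadjusted p under 0.05, and DESeq2 called 68, 175 and 51 genes.

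**Figure D5:**
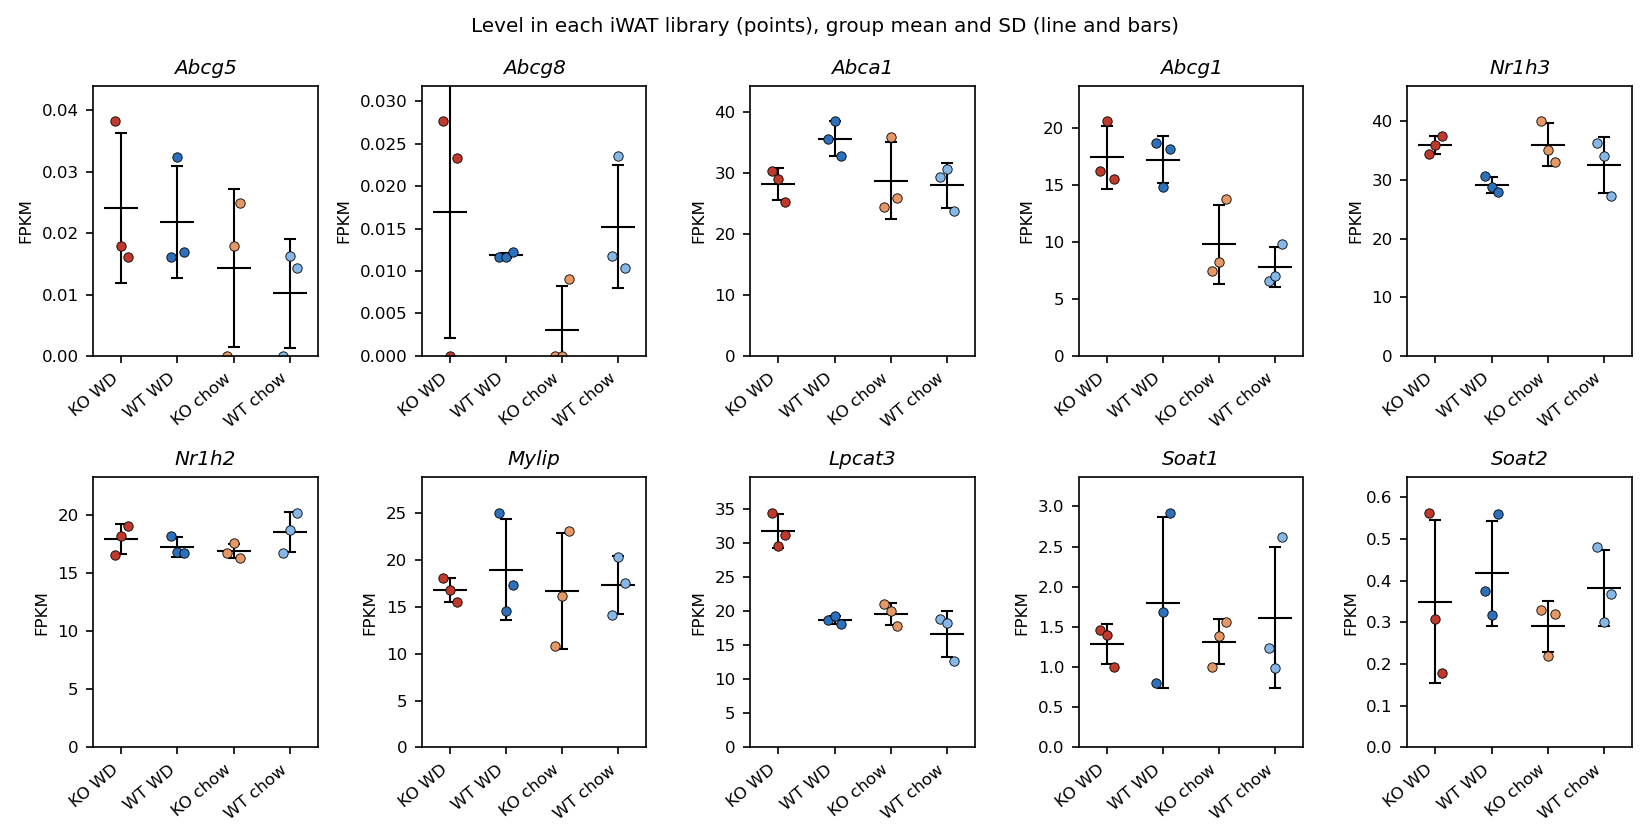
FPKM of the 10 genes (y axis, from 0, scaled per gene) in each iWAT library (points), grouped on the x axis as KO WD, WT WD, KO chow and WT chow; lines are group means and bars SD (n = 3). Lpcat3 is highest in KO WD and Abcg1 is higher in both WD groups, while Abcg5 and Abcg8 stay at 0.0383 FPKM or below.

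Among the 14 other targets of the liver X receptors tested in iWAT, Acaca and Fasn, which make fatty acids, were called higher in KO against WT on WD, where 3.2% of all genes were, and lower on WD against chow in WT, where 0.769% were. Acaca averaged 51.9 ± 7.02 FPKM in KO WD and 14.4 ± 2.70 FPKM in WT WD depots (SD, n = 3 each), a log2 fold change of 1.79 ± 0.20 (adjusted p = 0.00497). Fasn gave 2.07 ± 0.37 (adjusted p = 0.0226). On WD against chow in WT the 2 genes fell by 1.63 ± 0.20 and 1.96 ± 0.37, and these comparisons share the WT WD depots. For Lpcat3 the same comparison gave 0.18 ± 0.14 (adjusted p = 0.474).

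The authors' deposited table for KO against WT on WD in liver, which lists genes with an unadjusted p under 0.05, holds 5 of the 10 genes. It gives log2 fold changes of 0.86 for Abcg5 (adjusted p = 2.55e-07), 1.02 for Abcg8 (adjusted p = 1.67e-07), -1.25 for Abcg1 (adjusted p = 1.99e-05), -1.60 for Soat1 (adjusted p = 3.02e-06) and -0.59 for Mylip (adjusted p = 0.0497). The authors' deposited tables for chow list none of the 10.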

How the data were processed

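RNA of 24 libraries was captured on poly-T beads, per the labels' protocols, and mm10, DESeq2 1.20.0 and HISAT2 2.0.5 appear without roles in the submitters' processing notes. Neither the read counter nor the strand setting is stated there. The authors' FPKM were the values analysed, with positions from the same deposited table. For the genotype comparisons, the authors' deposited tables give read counts, log2 fold changes and p-values, which are of DESeq2 per the deposited description. The authors' gene length column of the deposited table was used to turn FPKM back into reads. Whole reads within 0.01 came out for 540911 of 540911 values above 0 (100%), and 64434 of 64434 deposited counts equalled them. Of the deposited value columns, 56 were left unused. The FPKM already carry a library scaling, with an effective size of 0.769 to 1.07 times the reads in liver (group mean 1.02 in WT WD, 0.781 to 0.816 in the others) and 1.24 to 1.60 times in iWAT.

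A gene entered the fit of a tissue from a mean of 0.5 FPKM, and these were fitted with limma 3.58.1 (trend, robust) on log2(FPKM + 1), with the 4 groups of a tissue in 1 model, in R 4.3.3, with Benjamini-Hochberg adjustment over all genes tested. On data simulated for KO against WT on WD in liver, the fit called 157 of 200 genes changed 4-fold and 9 unchanged ones, of 14019. The simulated counts had the same dispersion for every gene and were scaled by total reads. They held no differences between libraries in tissue content, and changes smaller than 4-fold were not simulated. edgeR 4.0.16 and DESeq2 1.42.0 ran on the recovered reads as alternatives. Sums and plots used Python 3.11.15, pandas 2.3.3 and matplotlib 3.10.9. The 3 libraries of a group are biological replicates by the deposited description, and no pair agreed within counting noise. Equal replicate numbers do not pair mice in the labels, and the 1 comparison in which the deviations of all 3 equal-numbered pairs had r over 0.1 was that of the genotypes on chow in iWAT (0.184, 0.127 and 0.407). There the fit with a replicate block called 1 gene and none of the 10.

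The members and lists were chosen with earlier results of these data known. All 10 members are named in the comparisons. From each of 7 pathway lists up to 3 called genes with the smallest p are named for a comparison, some of which are not reported here, and for a member the 3 genes with the highest r over the 12 libraries of the tissue. Of 85 member values, 32 lay within 1 SE of 0, and most of these are not given one by one. Promoters are RefSeq's (GRCm38.p6), and exonic overlap is from GENCODE vM21, where 9 of the 10 members had the coordinates of the deposited table.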

Additional observations from a re-analysis of the deposited data

How the results depend on the processing

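Of the 10 genes, KO against WT on WD in liver called 4, and 3 to 5 with 1 library left out. The diet in WT liver called 5, 2 when only the groups compared were fitted, and 4 to 5 with 1 library left out. Abcg8 was also called there with scaling by total reads, median of ratios, quantiles, edgeR and DESeq2, and Nr1h2 with scaling by total reads. The diet in KO liver called 2, and 0 without the 4 livers high in pancreas or muscle genes. The liver interaction called 0, but 1 with scaling by total reads, 1 with median-of-ratios scaling, 2 with DESeq2 and 0 to 3 with 1 library left out. KO against WT on WD in iWAT called 1, but 2 with DESeq2, 0 to 1 with 1 library left out, and 0 with no filter on low values, with only the groups compared or without the 2 depots high in muscle genes. In WT iWAT the diet called 1, but 0 with no filter, with scaling by total reads or median of ratios, with only the groups compared, with the replicate block, without the 2 muscle-rich depots and with any 1 library left out (0 to 0). In KO iWAT it called 0, and 1 with DESeq2. The replicate block changed no other count of the 10.

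The left-out livers and depots were chosen after seeing the data. Values not called turned negative as follows. Abca1 for KO against WT on WD in liver was -0.31 with total reads, -0.0714 with median of ratios, -0.26 with quantiles, -0.0648 with edgeR, -0.0724 with DESeq2 and -0.0251 to 0.0419 with 1 library left out. In the same comparison Nr1h3 was -0.11 with total reads and -0.0334 with quantiles, and Lpcat3 was -0.0145 with total reads. Nr1h2 for WD against chow in WT liver was -0.0288 to 0.22 with 1 library left out. With total reads the liver interaction was -0.0425 for Nr1h3 and -0.0212 for Nr1h2. Scaling by total reads moved the median of all genes to -0.17 for KO against WT on WD in liver, 0.20 for WD against chow in WT liver, -0.16 for the liver interaction and -0.12 for KO against WT on WD in iWAT, so values under it are read against those shifts. The cause of these changes was not tested.

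Calls over all genes moved by over 1.5 times too. KO against WT on WD in liver called 2943 genes and 1354 to 2998 with 1 library left out. In WT liver the diet called 2693, 709 with only the groups compared, 954 without the 4 livers and 1425 to 2791 with 1 library left out. In KO liver it called 59, 633 with DESeq2, 34 with no filter, 28 with the replicate block, 0 without the 4 livers and 24 to 53 with 1 library left out; scaling by total reads called 27 higher and 32 lower, against 21 and 38. The liver interaction called 77 (18 higher and 59 lower), 224 with total reads (10 and 214), 528 with DESeq2, 50 with no filter, 13 with edgeR and with a pseudocount of 0.1, 20 with the block, 0 without the 4 livers and 15 to 330 with 1 library left out. In iWAT, KO against WT on WD called 624 (470 higher and 154 lower), 959 with total reads (382 and 577), 1454 with DESeq2, 204 with no filter, 16 with only the groups compared, 4 without the muscle-rich depots, 15 without the 3 lymphocyte-rich ones and 16 to 871 with 1 library left out. The diet in WT iWAT called 312, 499 with total reads, 1598 with DESeq2, 139 with no filter, 95 with only the groups compared, 123 with the block, 136 and 99 without those depots and 22 to 287 with 1 library left out. The number of mice, 3 per group, and reads as few as 72 for Soat1 in liver limit the precision.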

Other observations

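Further lists of the sterol pathway held genes that were called in liver. Of 5 tested oxysterol enzymes, 2 were higher in WD livers labelled KO than in those labelled WT, where 10.6% of all genes were called higher, and 3 fell on WD in WT, where 9.49% were called lower. Cyp7b1, an oxysterol hydroxylase, averaged 179 ± 51.4 FPKM in WD livers labelled KO and 39.2 ± 5.42 FPKM in those labelled WT (SD, n = 3 each), a log2 fold change of 2.13 ± 0.29 (limma adjusted p = 0.00205). Cyp27a1, which makes 27-hydroxycholesterol, averaged 351 ± 26.5 FPKM and 169 ± 23.3 FPKM in the same groups (1.05 ± 0.14, adjusted p = 0.00174). Of 6 genes of HDL and reverse transport, 3 were higher in the WD livers labelled KO, against the same 10.6% of all genes, among them Apoa2 (0.75 ± 0.15, adjusted p = 0.00719) and Lcat, which esterifies cholesterol on HDL (0.73 ± 0.16, adjusted p = 0.00999), and 3 fell on WD in WT. The list median between the WD groups was 0.64, against 0.72 for the hepatocyte genes, of which 5 of 8 were called higher and which share Apoa1 with it. The part of hepatocyte content in these values was not tested. Rxra, the retinoid X receptor partner, averaged 141 ± 15.04 FPKM in WD livers labelled KO and 78.6 ± 9.995 FPKM in those labelled WT (0.84 ± 0.14, adjusted p = 0.00403). It was 1 of 2 called among 8 partners and cofactors, both higher, where 10.6% of all genes were called higher. No gene of these 3 lists was called for WD against chow in KO.

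Among 10 tested genes of sterol uptake and lysosomal release, Npc2 was the only one called lower in WD livers labelled KO (-0.81 ± 0.15, adjusted p = 0.00579). Of all genes, 10.4% were called lower there. Npc2 hands cholesterol on inside lysosomes. Lrp1, a lipoprotein receptor, was the only one called higher (0.48 ± 0.13, adjusted p = 0.0278), where 10.6% of all genes were. With 10 genes, these calls lie near the shares over all genes. On WD in WT liver Stard4, a cytosolic sterol carrier, fell by 1.70 ± 0.30 (adjusted p = 0.00487), where 9.49% of all genes were called lower. None of the 4 canalicular lipid transporters was called in liver by limma, with medians of 0.32 for KO over WT on WD and 0.46 for WD over chow in KO.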
